A study of Homo sapiens with 8 samples.

Results

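The SOX genes examined here were chosen by name, with earlier results of these data known. They comprise 10 genes of subgroups B, C, D and E. The array's annotation gives them 12 of the 50599 probes, 3 for SOX13 and 1 for each of the others. Values come from 8 one-colour Agilent arrays of total RNA from NGP, an established neuroblastoma cell line grown in serum-containing medium. The 4 mock arrays are of cells that received a mock construct by lentivirus, and the 4 arrays labelled CFC1 are of cells that received CFC1 cDNA in the same way. Cells of both groups were selected with puromycin, and the labels give neither the promoter that drives CFC1 nor whether the 4 samples of a group were separate cultures. The p-values therefore rest on a spread between arrays that may be technical only. CFC1 encodes Cryptic, a co-receptor for Nodal-type ligands, and the comparison asks how its expression affects the transcripts of this line.

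SOX proteins are transcription factors that share a high-mobility-group (HMG) box, a domain that binds the minor groove of DNA and bends it. Subgroups are defined by sequence: SOX2 and SOX21 belong to B, SOX4 and SOX11 to C, SOX5, SOX6 and SOX13 to D, and SOX8, SOX9 and SOX10 to E. In the neural crest lineage from which neuroblastoma arises, SoxE factors are known for progenitor, glial and melanocyte fates, and SoxC factors for young sympathetic neurons.

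The deposited values are logarithms, read as log2, of each probe against a baseline that is not stated. A value is therefore no level of expression. Differences between arrays of 1 probe can be read, but neither the order of the SOX genes by abundance nor the presence of the neuroblastoma markers can. The table holds no background flags, so how near a dim group lay to background is unknown. In total RNA of a culture, fewer cells with a transcript and less transcript per cell cannot be told apart.

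The groups differed widely over the whole array. By limma with Benjamini-Hochberg adjustment, 42.1% of all probes passed an adjusted p of 0.05. Among all probes, 20.0% passed as higher with CFC1 as the label and 22.1% as lower. The median difference of all probes was -0.13 on the log2 scale, and setting arrays to their E1A control spots moved it by 0.102. Array medians ran from -0.14 to 0.14, and each array had 172 to 322 probes more than 2 log2 units from every other array of its group. The arrays labelled CFC1 did not have the higher values of the CFC1 probe. It read 0.47, 1.10, 0.12 and -0.027 in mock replicates 1 to 4 and 0.055, -0.69, -0.59 and -0.30 in the others, a difference of -0.80 (SE 0.28, adjusted p = 0.0546, exact two-sided permutation p = 0.0571). The probe's position relative to the transduced cDNA was not determined, so it does not bear out the labels, and every direction below rests on them.

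Of the 12 probes, 7 were lower and 3 higher in the arrays labelled CFC1, and 2 did not pass, against the 42.1% called over the array. The groups did not overlap for 7 probes that were lower and 2 that were higher, where 42.6% of all probes did not overlap, 22.3% lower and 20.3% higher. As genes, 6 fell, 2 rose and 2 did not pass, where 57.9% of all 21524 genes were called, 29.7% higher and 28.2% lower. The 2 that rose were SOX8 and SOX13, and the SOX13 value is a mean of probes that moved in opposite directions. Members fell in each of the 4 subgroups, and the rises were those of SOX8 in E and of 2 SOX13 probes in D. Differences ran from -4.62 for SOX6 to 3.60 for SOX8, with a median of -0.55 over the 12 probes and -0.13 over all probes. At least 2-fold changes passed for 5 of the 12 probes, and for 15.6% of all probes. Among genes 4 of 10 passed at 2-fold, the mean of the SOX13 probes among them, beside 18.7% of all genes. Since the members were chosen with earlier results known, these shares do not describe the SOX family.

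**Figure D1:**
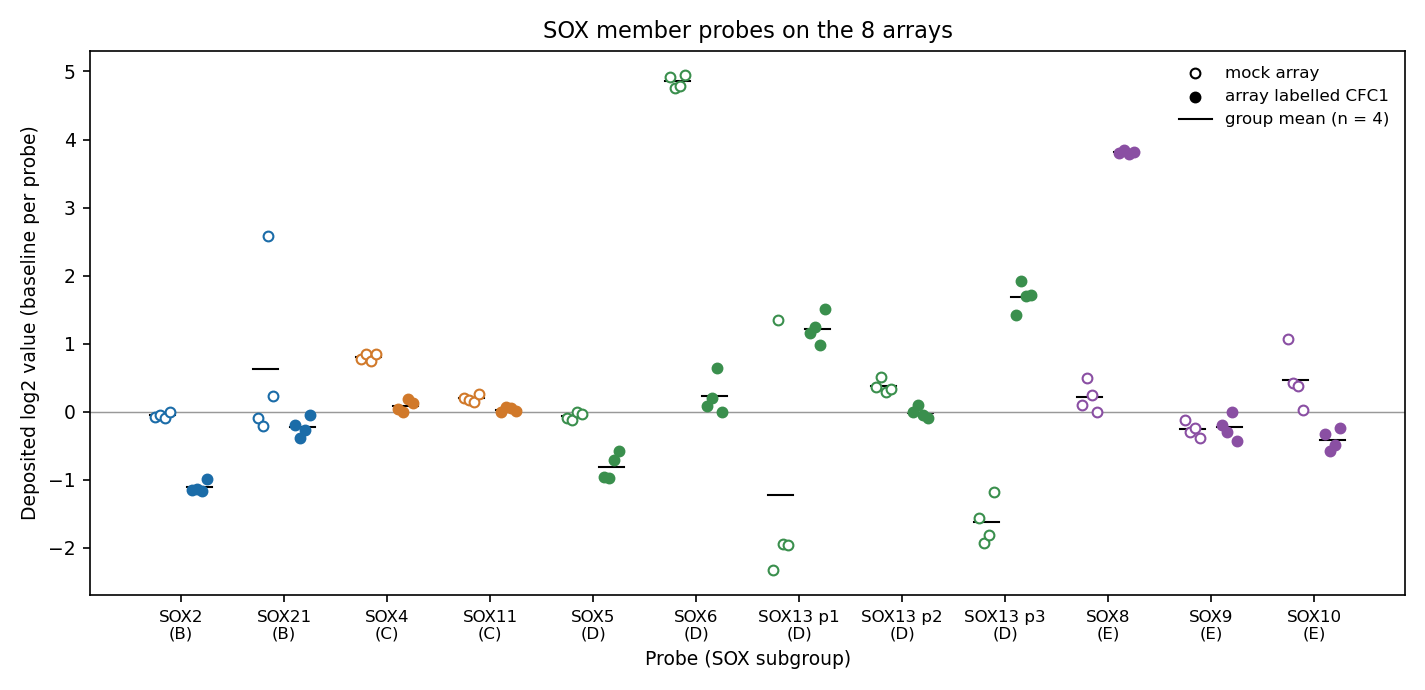
Deposited log2 value (vertical axis, each probe against its own baseline) of the 12 SOX probes on the 4 mock arrays (open circles) and the 4 arrays labelled CFC1 (filled circles), with lines at the group means and letters for the subgroups. SOX6 falls from about 4.85 to 0.23, SOX8 rises from 0.21 to 3.82, and mock replicates stand alone for SOX21 (2.59) and for SOX13 probe 1 (1.34).

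Promoter stretches of the 4 members that fell and have a window in the sequence table are shown to give the DNA upstream of these transcripts. Each is the 250 bases before an annotated start, from RefSeq on GRCh38.p14, read 5′ to 3′ on the gene's strand. Capitals mark ACAAT or its reverse complement ATTGT, a form of the core that SOX proteins bind. The SOX2 stretch is chr3:181711675-181711924 on the plus strand, SOX4 is chr6:21593501-21593750 on the plus strand, SOX5 is chr12:24562492-24562741 on the minus strand and SOX6 is chr11:16738478-16738727 on the minus strand. The stretches of SOX2, SOX4 and SOX6 abut the gene's outermost annotated start, and that of SOX5 abuts a start inside the annotated gene.
SOX2: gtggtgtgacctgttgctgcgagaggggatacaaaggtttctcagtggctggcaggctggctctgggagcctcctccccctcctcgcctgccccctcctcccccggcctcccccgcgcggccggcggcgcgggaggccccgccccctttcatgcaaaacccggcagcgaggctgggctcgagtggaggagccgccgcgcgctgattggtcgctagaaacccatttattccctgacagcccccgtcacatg
SOX4: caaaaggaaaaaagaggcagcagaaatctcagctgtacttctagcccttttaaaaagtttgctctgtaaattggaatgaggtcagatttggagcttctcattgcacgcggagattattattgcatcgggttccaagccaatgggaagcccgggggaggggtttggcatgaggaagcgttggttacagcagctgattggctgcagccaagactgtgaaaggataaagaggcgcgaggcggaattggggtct
SOX5: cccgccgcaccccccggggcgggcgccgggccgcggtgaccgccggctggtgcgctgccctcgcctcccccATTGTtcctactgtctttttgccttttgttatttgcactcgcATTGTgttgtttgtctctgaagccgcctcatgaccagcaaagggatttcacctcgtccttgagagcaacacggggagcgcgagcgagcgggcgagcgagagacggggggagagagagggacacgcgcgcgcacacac
SOX6: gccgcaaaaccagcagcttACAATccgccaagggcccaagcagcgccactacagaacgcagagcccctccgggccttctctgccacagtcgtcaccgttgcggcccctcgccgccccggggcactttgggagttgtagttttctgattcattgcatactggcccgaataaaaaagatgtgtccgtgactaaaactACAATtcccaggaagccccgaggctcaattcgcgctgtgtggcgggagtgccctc

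This form of the core occurred at 2 places in the SOX6 stretch and at 2 in that of SOX5. Those of SOX2 and SOX4 did not hold it. Over all 35116 windows of 250 bases in the table, 24.6% held this form on either strand. Other forms were not searched, so a stretch without this form may still hold a SOX site. The E-box CACGTG, a site that MYC family proteins bind, is in 6.34% of all windows and in none of the 4 stretches. GC content was 68.8% for SOX2, 48.8% for SOX4, 65.6% for SOX5 and 58.8% for SOX6, where the median of all windows was 58.0%. Such matches are letters only, and these data hold no measurement of binding. SOX8, SOX9, SOX10 and SOX11 have no entry in the table. The other 6 members have 10 windows. Those not shown belong to further starts of SOX6, which all held this form of the core, and to SOX13 and SOX21, which did not.

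In subgroup B, SOX2 was lower in the arrays labelled CFC1 and SOX21 did not pass. SOX2 is a factor of pluripotent and neural progenitor cells. Its probe read -0.075, -0.043, -0.096 and 0 in mock replicates 1 to 4 and -1.15, -1.13, -1.17 and -0.99 in CFC1 replicates 1 to 4. The groups lay about 1 unit apart with little spread inside either, and the difference was -1.06 (SE 0.056, 95% interval -1.19 to -0.93, adjusted p = 2.66e-06), or 2.08-fold. After quantile normalization it was -1.69. SOX21, a neural factor known mainly as a repressor, read -0.091, -0.21, 2.59 and 0.23 in the mock arrays and -0.20, -0.39, -0.27 and -0.048 in the others. Mock replicate 3 alone stood high, the groups overlapped, and the difference of -0.86 had an interval of -2.28 to 0.57 (adjusted p = 0.335). Without mock replicate 3 it was -0.20. The interval covers both no difference and one larger than that of SOX2. The 2 genes were not shown to differ from each other (SOX2 minus SOX21, -0.20, SE 0.67, exact permutation p = 0.857).

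In subgroup C, SOX4 fell by 0.72 on the log2 scale and SOX11 by 0.16. SOX4 and SOX11 are activators that support survival and differentiation of young neurons, and SOX11 belongs to the adrenergic programme of neuroblastoma. SOX4 read 0.77, 0.84, 0.75 and 0.85 in the mock arrays and 0.037, 0, 0.19 and 0.13 in the others. All mock arrays lay above all others, with a difference of -0.72 (SE 0.059, 95% interval -0.85 to -0.58, adjusted p = 3.01e-05). After quantile normalization SOX4 stood at -0.34 and still passed (adjusted p = 0.0191). SOX11 read 0.20, 0.17, 0.14 and 0.26 in the mock arrays and 0, 0.065, 0.059 and 0.0073 in the others. These groups did not overlap either, but the shift was 1.12-fold (-0.16, SE 0.045, adjusted p = 0.0223), near the -0.13 median of all probes. The SOX11 call was lost with arrays centred on their medians (-0.12, adjusted p = 0.261) or set to the E1A spots (-0.061, adjusted p = 0.511). After quantile normalization SOX11 stood at 0.0105 (adjusted p = 0.895). The call of SOX11 was lost on leaving out mock replicate 1 (-0.16, adjusted p = 0.0559) or mock replicate 4 (-0.14, adjusted p = 0.0524). The same held for CFC1 replicate 1 (-0.15, adjusted p = 0.0643) and CFC1 replicate 4 (-0.15, adjusted p = 0.0596). The fall of SOX4 exceeded that of SOX11 by 0.55 (SE 0.051, exact permutation p = 0.0286, adjusted 0.0327 over 8 gene pairs).

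Subgroup D held the largest fall among the members and probes that moved in opposite directions. SoxD proteins lack a known activation or repression domain of their own and act as dimers beside other factors. SOX5 and SOX6 are known as partners of SOX9 in cartilage. SOX6 read 4.92, 4.76, 4.79 and 4.94 in the mock arrays and 0.092, 0.20, 0.65 and 0 in the arrays labelled CFC1. The spread inside either group was small beside the gap, with means of 4.85 ± 0.09 and 0.23 ± 0.29 (SD, n = 4). The difference was -4.62 (SE 0.142, 95% interval -4.95 to -4.28, adjusted p = 1.62e-07), a fitted 24.6-fold. Counting SOX6, 26 of all 50599 probes had a fall at least as large.

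SOX5 moved the same way by much less. It read -0.085, -0.12, 0 and -0.039 in the mock arrays and -0.96, -0.97, -0.71 and -0.58 in the others. Groups were apart, with a difference of -0.74 (SE 0.098, 95% interval -0.97 to -0.51, adjusted p = 4.51e-04), or 1.68-fold. The fall of SOX6 was larger than that of SOX5 by 3.87 (SE 0.17, exact permutation p = 0.0286, adjusted 0.0327).

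SOX13, named first as an autoantigen and known in T cell development, had 3 probes that did not share a direction. Probe 3 (A_33_P3325120, annotated to an Ensembl transcript) read -1.55, -1.93, -1.81 and -1.17 in the mock arrays and 1.42, 1.92, 1.70 and 1.72 in the others. It rose by 3.31 (SE 0.18, 95% interval 2.88 to 3.74, adjusted p = 3.43e-06), or 9.89-fold. Probe 2 (A_33_P3325110) read 0.36, 0.51, 0.29 and 0.33 in the mock arrays and -0.0079, 0.093, -0.045 and -0.088 in the others. It fell by 0.39 on the log2 scale (SE 0.066, adjusted p = 0.00193), a call lost after quantile normalization (-0.23, adjusted p = 0.0835). Probe 1 (A_23_P85703) is annotated to the same RefSeq transcript as probe 2. It read -2.33, 1.34, -1.94 and -1.96 in the mock arrays and 1.16, 1.24, 0.98 and 1.51 in the others. Mock replicate 2 lay within the range of the CFC1 group and apart from the other mock arrays. With it the rise was 2.45 (SE 0.79, adjusted p = 0.0408), and without it 3.30 (adjusted p = 8.96e-06). Leaving out any other single array lost the call of SOX13 probe 1, with values from 2.08 to 2.53 and adjusted p-values from 0.0749 to 0.103, and unmoderated variances lost it too (adjusted p = 0.0697).

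The group difference of probe 1 exceeded that of probe 2 by 2.83, and that of probe 2 minus that of probe 3 was -3.69 (exact permutation p = 0.0286 for each). Between probes 1 and 3 no difference was shown (-0.86, exact permutation p = 0.657). The mean of the 3 probes, 1.79, describes none of them. Where on the transcripts of SOX13 the probes lie was not determined. SOX6 minus SOX13 was -7.07 with probe 1, -4.23 with probe 2 and -7.92 with probe 3 (exact permutation p = 0.0286 for each). SOX5 minus SOX13 was -3.19 with probe 1 and -4.05 with probe 3 (exact permutation p = 0.0286 for each), and -0.36 with probe 2, which did not pass (exact permutation p = 0.0571). By the mean of the probes, SOX5 minus SOX13 was -2.53 and SOX6 minus SOX13 was -6.41 (exact permutation p = 0.0286 for each, adjusted 0.0327).

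In subgroup E the 3 members took 3 courses: SOX8 rose, SOX10 fell and SOX9 did not pass. SOX8 is the least studied SoxE factor and overlaps with SOX9 and SOX10 in glia, neural crest and testis. It read 0.11, 0.50, 0.24 and 0 in the mock arrays and 3.80, 3.85, 3.79 and 3.82 in the others. The CFC1 group had an SD of only 0.028, and every array of it lay more than 3 units above every mock array. The difference was 3.60 (SE 0.106, 95% interval 3.35 to 3.85, adjusted p = 1.26e-07), or 12.2-fold, and 589 of all probes, SOX8 counted, rose at least as much.

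SOX10 directs Schwann cell, enteric and melanocyte fates. It read 1.06, 0.42, 0.38 and 0.021 in the mock arrays and -0.33, -0.57, -0.49 and -0.24 in the others. The groups did not overlap, although the mock arrays were spread over about 1 unit, and the difference was -0.88 (SE 0.212, 95% interval -1.38 to -0.38, adjusted p = 0.0112). The lowest mock array and the highest of the others were close, and SOX10 kept its call under each of the 17 alternatives (adjusted p from 0.00465 to 0.0339).

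SOX9, the driver of cartilage and Sertoli cell fates and a factor of neural crest stem cells, read -0.12, -0.29, -0.23 and -0.38 in the mock arrays and -0.20, -0.30, 0 and -0.43 in the others. The groups overlapped throughout, with a difference of 0.028 and a 95% interval of -0.21 to 0.27 (adjusted p = 0.846). Within the SoxE genes, the rise of SOX8 exceeded the difference of SOX9 by 3.58 and that of SOX10 by 4.48, and SOX9 exceeded SOX10 by 0.91 (exact permutation p = 0.0286 each, adjusted 0.0327). After quantile normalization the last of these gaps was 0.81 (adjusted p = 0.0653). The 8 gene pairs were those inside the subgroups, 0.0286 is the smallest p that 70 arrangements allow, and with an array left out the smallest is 0.0571.

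**Figure D2:**
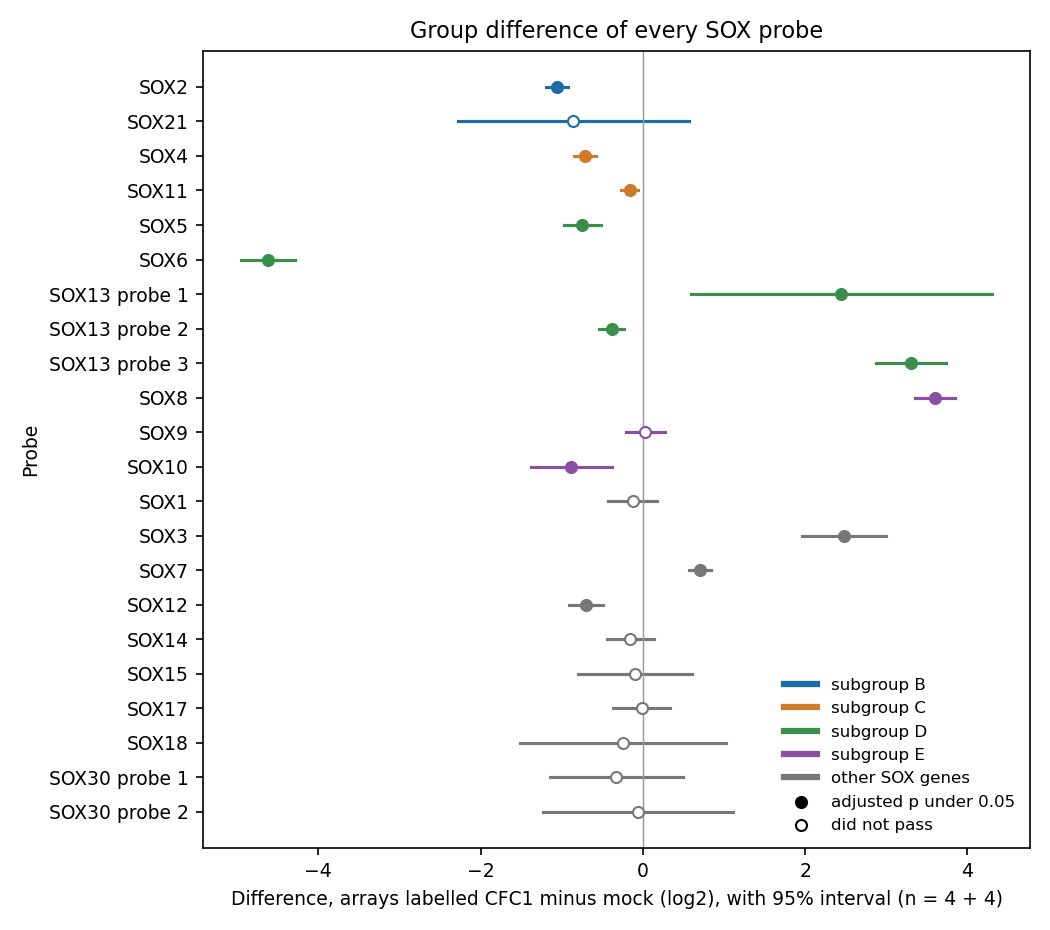
Difference between the arrays labelled CFC1 and the mock arrays (horizontal axis, log2) for each SOX probe, with its 95% interval (n = 4 in each group), colours for the subgroups and filled points for an adjusted p under 0.05. SOX6 lies far to the left at -4.62, SOX8 and SOX13 probe 3 far to the right at 3.60 and 3.31, and SOX9 at 0.028.

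The 9 other SOX genes, with 10 probes, were mixed: 2 rose, 1 fell and 7 probes did not pass, or 30.0% called against 42.1% over the array. SOX3, a SoxB gene of neural progenitors close to SOX2, read -2.55, -3.14, -3.09 and -2.64 in the mock arrays and -0.68, 0, -0.13 and -0.69 in the others. It rose by 2.48 (SE 0.218, adjusted p = 4.57e-05), opposite in direction to SOX2, and by 1.55 after quantile normalization. SOX12, the third SoxC gene, fell by 0.70 on the log2 scale (SE 0.089, adjusted p = 3.67e-04), beside the 0.72 of SOX4, and by 0.40 after quantile normalization. SOX7, a SoxF gene of endothelium, rose by 0.70 (SE 0.056, adjusted p = 2.69e-05). Among the others, SOX1 (-0.13), SOX14 (-0.16), SOX15 (-0.096), SOX17 (-0.014), SOX18 (-0.24) and the 2 SOX30 probes (-0.33 and -0.058) did not pass.

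Several of the probes that did not pass stayed close to the median of each array. The root mean square distance from the 8 array medians was 0.138 for SOX1, 0.151 for SOX14 and 0.142 for SOX17, and 24.6% of all probes lay within 0.2. Among the members, SOX11 (0.198) and SOX9 (0.263) came nearest by this measure, and SOX6 (3.47) and SOX8 (2.77) lay farthest. The distance of SOX21 (0.976) includes mock replicate 3, which lay 2.73 from its array median. On the other arrays SOX21 ran only from -0.39 to 0.23, so it too stayed near the medians there. Whether probes near the array medians measured any transcript was not tested.

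The genes whose 8 values lay nearest to those of SOX6, by root mean square distance over the 8 arrays, were PCDHA3 (0.194), CDH18 (0.213), SCGN (0.219), CCDC192 (0.259) and SIX3-AS1 (0.267). Their differences ran from -4.37 to -4.81. For SOX8 they were CDYL2 (0.13), LHFPL3-AS2 (0.159), SSX3 (0.17), GABRE (0.182) and PVRIG (0.191), with differences from 3.51 to 3.82. Such likeness rests on the 2 group means and a few arrays.

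Genes beside the members on their chromosomes were read from the RefSeq gene order, 10 measured genes on either side of each member. Over all genes, 29.7% were called higher and 28.2% lower. The 20 neighbours of SOX6 had a median of 0.083 and ranged from -2.26 to 3.82, with 9 called higher and 7 lower, and none fell as far as SOX6. Those of SOX8 had a median of 0.44, with 11 called higher and 0 lower by limma, and none rose as much as SOX8. Around SOX10 the median was 0.49 and 14 neighbours were called higher and 2 lower, while SOX10 itself fell. Around SOX11, on the chromosome that carries MYCN, 11 neighbours were called lower and 1 higher, with a median of -0.47, and 16 of the 20 had a difference below that of SOX11. Around SOX4, 6 were called higher and 6 lower, and 4 fell further than SOX4: CASC15 (-2.40), NBAT1 (-2.26), PRL (-2.60) and NRSN1 (-2.24), which all lie within 5 measured genes on the same side of it. For SOX2, SOX21, SOX4, SOX5, SOX13 and SOX9 the neighbour medians lay between -0.21 and 0.044.

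**Figure D3:**
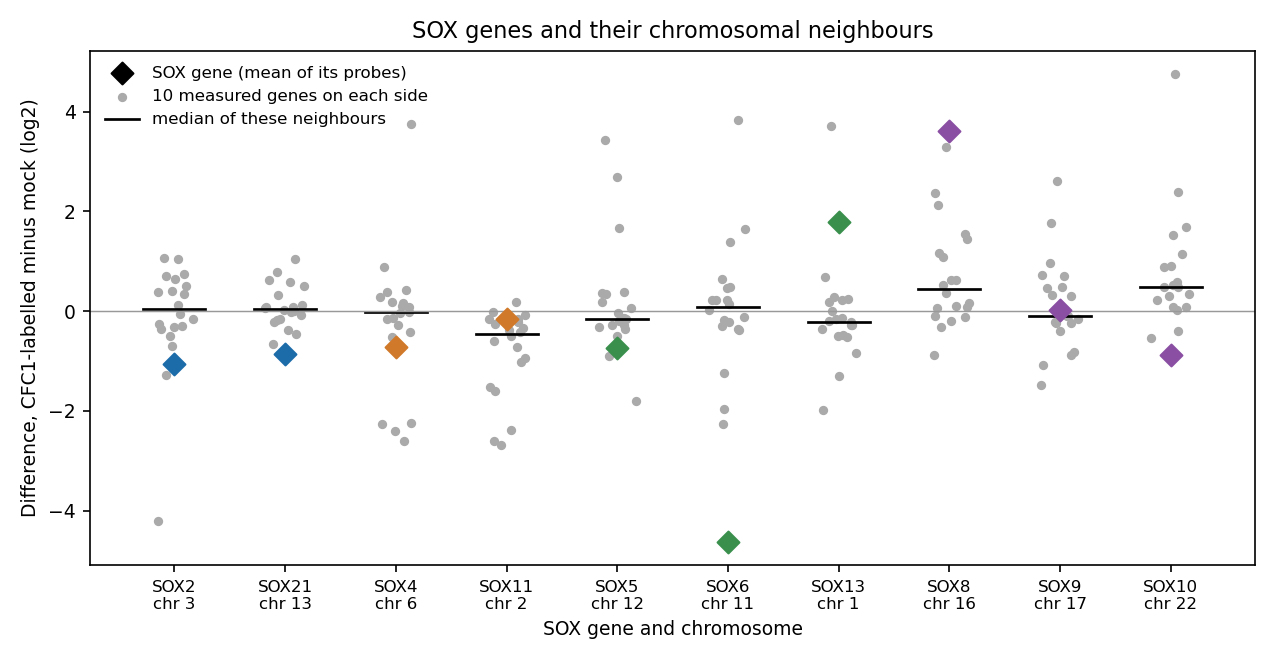
Difference between the groups (vertical axis, log2) of each SOX gene (diamond, mean of its probes) and of the 10 measured genes on each side of it on its chromosome (grey points, line at their median). SOX6 at -4.62 and SOX8 at 3.60 lie outside the range of their neighbours, and most neighbours of SOX11 lie below 0 with a median of -0.47.

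Non-coding RNAs of the SOX loci were lower where they were called. Of 7 measured, 3 fell, 0 rose and 4 did not pass, beside 57.9% called over all genes. CASC15 and NBAT1, neuroblastoma-associated RNAs transcribed next to SOX4, fell by 2.40 and by 2.26 on the log2 scale as means of 3 and 9 probes. The 3 CASC15 probes ran from -3.42 to -0.55. The NBAT1 probes ran from -3.12 to -0.80, and the last of these did not pass (adjusted p = 0.444). SOX9-AS1, which is transcribed from the SOX9 locus, had a probe at -1.77 (adjusted p = 1.34e-05) and another at 0.14 (adjusted p = 0.74), while SOX9 itself did not pass. SOX2-OT, within which SOX2 lies, was at -0.26 (adjusted p = 0.139 in the fit over genes) and SOX21-AS1 at -0.16 (adjusted p = 0.306).

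A list of 7 other transcription factors with an HMG box was lower throughout. All 7 fell, where 28.2% of all genes were called lower, and their median was -0.43 where all genes had -0.086. They include TCF7L1 at -1.35 and TCF7L2 at -0.55, which carry WNT signals with beta-catenin, and LEF1 at -0.43. HBP1, a repressor, was at -1.06. After quantile normalization 4 of the 7 passed and all 7 differences stayed below 0, with LEF1 at -0.13 (adjusted p = 0.122) and TCF7L1 at -0.87. The 4 probes of TCF7L2 ran from -1.24 to 0.096.

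Partners and targets of SoxB factors went both ways, with 6 of 20 higher, 8 lower and 6 not passing (70.0% called), and a median of -0.052. Over all genes, 57.9% were called, 29.7% higher and 28.2% lower. PROM1, the surface antigen CD133, was at -3.91, POU3F2, a POU factor that pairs with SOX2 in neural progenitors, at -2.86, SALL4 at -2.07 and NANOG at -1.60. POU3F2 read 2.91 to 3.001 in the mock arrays and 0 to 0.20 in the others. The 6 genes of this list that rose were CDH2 (1.26), POU3F1 (1.09), HESX1 (0.68), GLI3 (0.67), MSI1 (0.63) and KLF4 (0.46). Among neuronal and sympathoadrenal genes linked to SoxC factors, 4 of 19 rose, 12 fell and 3 did not pass (84.2% called, beside 57.9% of all genes), with a median of -0.53. STMN2, a tubulin regulator of growing axons, was at -3.92, and DCX, a microtubule protein of young neurons, at -2.42. The transcription factors PROX1 and ISL1 were at -2.45 and -2.18. The 4 that rose were TEAD2 (1.67), NEUROD1 (1.20), NHLH1 (0.96) and TUBB3 (0.31).

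Cartilage genes that SOX9 activates with SOX5 and SOX6 were mixed. Of 15 measured, 6 rose, 5 fell and 4 did not pass (73.3% called, beside 57.9% of all genes), with a median of -0.086, equal to that of all genes. COL2A1, the type II collagen chain and the classical SOX9 target, read -5.12, -4.78, -5.20 and -4.74 in the mock arrays and 0.56, 0.71, 0.78 and 0.64 in the others. It rose by 5.64 (SE 0.118, adjusted p = 1.31e-08), although SOX9 did not pass and SOX5 and SOX6 fell. MATN3, a cartilage matrix protein, rose by 2.11, also after quantile normalization, and SCRG1 by 1.92. COL9A3, a chain of type IX collagen, was at -1.86 (-2.85 after quantile normalization). The other rises were those of ACAN, COMP and CYTL1, and the other falls those of COL9A2, COL11A1, COL11A2 and SNORC. The 2 probes of COL9A2 went opposite ways, at -2.47 and 0.22, and the 2 of ACAN were at 0.52 and 2.72.

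Glial, myelin and melanocyte targets of SoxE factors had 3 of 18 higher, 9 lower and 6 not passing (66.7% called, beside 57.9% of all genes), and a median of -0.68. TYRP1, a melanin enzyme, was at -3.10, MIA at -2.76 and EDNRB, the endothelin receptor of crest cells, at -1.94. EGR2, the regulator of myelination, rose by 2.94. The other genes of this list that rose were RET (0.685) and MITF (0.36). The melanin genes TYR (-0.14) and DCT (-0.46) did not pass, so the fall of TYRP1 was not shared by all melanocyte genes listed. ERBB3, MBP, GJB1 and CDH19 did not pass either.

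Neural crest network genes had 4 of 15 higher, 8 lower and 3 not passing (80.0% called, beside 57.9% of all genes), with a median of -0.45. After quantile normalization the split was 5 higher and 6 lower. MSX1, a homeobox factor of the neural plate border, rose by 4.34, from between -4.52 and -4.24 in the mock arrays to between -0.13 and 0 in the others. TFAP2A rose by 2.14 and its relative TFAP2B was at -3.86. ETS1, a factor of migrating crest cells, was at -1.80. Of the 110 genes measured in the 8 SOX-related gene lists, 78 passed, or 70.9%, beside 57.9% of all genes. The lists too were chosen with earlier results of these data known.

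**Figure D4:**
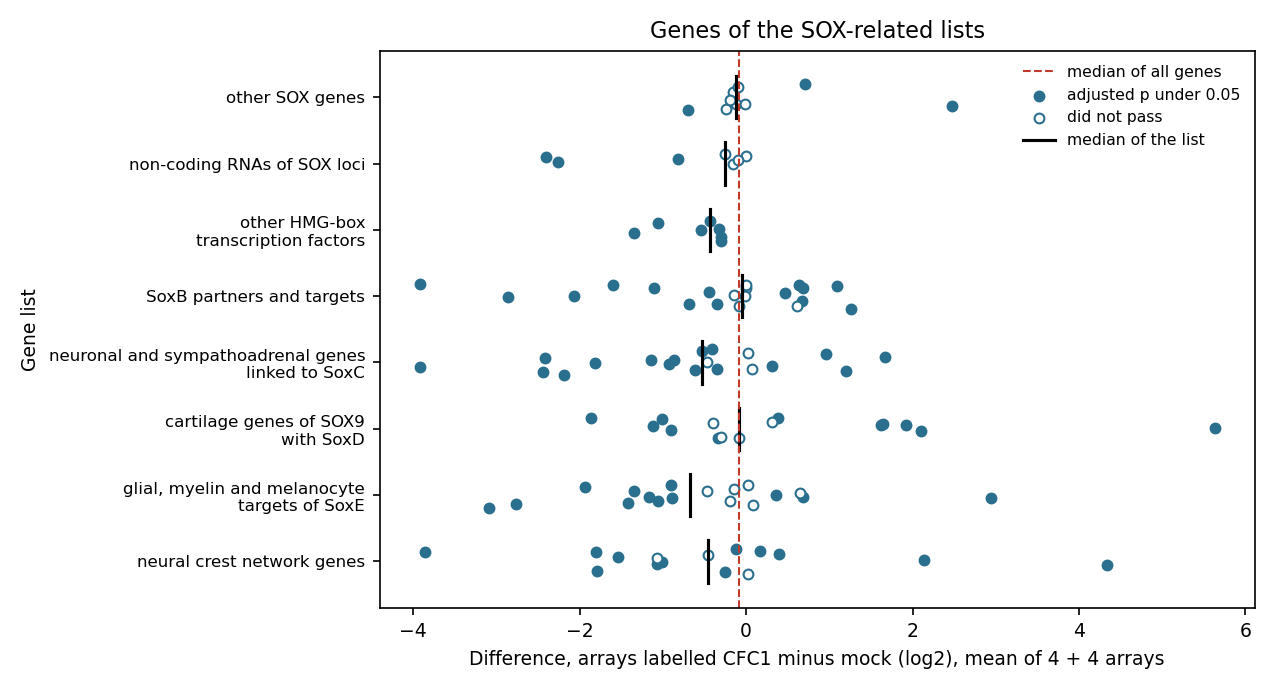
Difference between the groups (horizontal axis, log2, mean of 4 arrays minus mean of 4) of each gene in 8 lists around the SOX factors, filled where the adjusted p was under 0.05, with a black line at each list's median and a dashed line at the -0.086 median of all genes. The HMG-box list lies wholly below 0, COL2A1 stands alone at 5.64 in the cartilage list and MSX1 at 4.34 in the neural crest list.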

How the data were processed

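Total RNA of 8 samples was hybridised to one-colour Agilent arrays with Cyanine3, per the labels' protocols. The authors deposited 1 table of log2 values (the base is not stated), each against an unstated baseline. For feature extraction, background treatment and scaling: not given in the sources used here. No probe was above 0, or below 0, on all 8 arrays. After 140 control spots were left out, 50599 probes were tested. Of these, 31993 had a gene symbol, updated through RefSeq accession for 28419, through symbol for 3072 and through synonym for 480, giving 21524 genes as means of probes. The number of arrays limits the precision.

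Probes of SOX genes were compared with R 4.3.3 and its package limma 3.58.1 (a linear model with eBayes over all 8 arrays of equal weight), with two-sided p-values adjusted by Benjamini-Hochberg over all probes. List genes were compared by the same fit over all genes. The threshold was 0.05. Pairs of genes were compared by exact two-sided permutation in scipy 1.17.1, with the SOX13 probes taken singly in a check added after the data were seen. Members and lists were chosen with earlier results of these data known. The text names all members, all other measured SOX genes except SRY, CFC1, the 5 genes nearest to SOX6 and to SOX8, and from each further list up to 4 genes with the largest called change. SOX2-OT, SOX21-AS1, PRL, NRSN1 and the other called cartilage genes were named outside this rule, after their values were seen. The same holds for the genes that rose in the SoxB and SoxC lists, and for RET, MITF and the SoxE list genes that did not pass. In the motif search both strands of 250 bases were read. Overlapping windows on opposite strands were compared, and 2759 agreed and 0 did not.

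Alternatives were quantile normalization, median centring, a block for the replicate number, E1A control spots, array weights, a variance trend, unmoderated variances, gene means in place of probes and the reverse, natural logarithms, and leaving out each array. The fits were tested on simulated data, with the recovery criterion relaxed once after a first run. That criterion covered only features with a spread below the median, so it does not bear on probes of wide spread.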

Additional observations from a re-analysis of the deposited data

Results flagged for a closer look

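Of 100 groups of 4 arrays examined, 10 had 1 array far from the other 3 (Dixon's test at its 95% critical value), and chance flags about 1 in 20. For SOX21, mock replicate 3 read 2.589 where the other mock arrays lay between -0.211 and 0.232. For SOX13 probe 1, mock replicate 2 read 1.341 and the other mock arrays -2.327 to -1.945. Among the other SOX genes, the highest mock array of SOX1 read 0.253 (the others -0.227 to -0.161), the highest array labelled CFC1 of SOX18 read 1.315 (the others -0.413 to -0.263), and the lowest mock array of SOX30 probe 1 read -0.977 (the others 0.144 to 0.293).

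In the lists, the lowest mock array of SCRG1 read -2.236 (the others -1.898 to -1.852) and the highest mock array of ETS1 read 1.589 (the others 1.315 to 1.341). Among arrays labelled CFC1, the lowest read 0.0 for TCF7L1 (the others 0.106 to 0.123) and 0.018 for DCX (the others 0.046 to 0.051), and the highest read 0.146 for SALL4 (the others 0.0 to 0.016).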

How the results depend on the processing

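The number of SOX member probes that passed, 10, stayed between 8 and 10 under all 17 alternatives run. In the fit over gene means, the count of 8 was of genes and not of probes. The number for the SOX-related gene lists, 78 genes, stayed between 72 and 82 in the fits over genes. Counted over probes, 110 probes passed, and a gene with several probes then counts more than once. Of the list of other HMG-box transcription factors 4 of 7 passed after quantile normalization. In the non-coding RNAs of SOX loci 12 probes passed, where the fit over genes called 3 RNAs and 42.1% of all probes passed. Except for a SOX9-AS1 probe, they were repeat probes of CASC15 (3 measured) and NBAT1 (9 measured), which lie side by side. SOX2, SOX4, SOX5, SOX6, SOX8, SOX10 and SOX13 probe 3 kept direction and call under each alternative. Same-numbered arrays of the groups deviated together with correlations of 0.132, 0.197, 0.0953 and 0.173. Since 1 of these is under 0.1, the numbers were not taken as pairs, although every array correlated best with its own number, a hint from the data and not the design. With the replicate number as a block, 8 member probes passed, and SOX11 (adjusted p = 0.0585) and SOX13 probe 1 (adjusted p = 0.0614) did not. In place of its own value, the mean of its 3 probes gave SOX13 probe 2 a difference of 1.79.

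Differences that had not passed, apart from the SOX11 call, changed sign in places. After quantile normalization SOX11 was at 0.0105, SOX17 at 0.0645 and SOX18 at 0.0342. With median centring SOX17 was at 0.0282. With E1A control spots SOX15 was at 0.0059, SOX17 at 0.0879 and SOX30 probe 2 at 0.0436, and with array weights SOX30 probe 2 was at 0.048. With single arrays left out, SOX9 ran from -0.0492 to 0.0925, SOX15 from -0.36 to 0.0815, SOX17 from -0.102 to 0.0989, SOX18 from -0.652 to 0.172, SOX30 probe 2 from -0.367 to 0.357, and SOX2 minus SOX21 from -0.868 to 0.0826. The cause was not tested. The CFC1 probe passed in 4 of 17 alternatives, at adjusted p-values from 0.0376 to 0.046 by limma. In each of these it was lower in the arrays labelled CFC1, by differences from -0.94 to -0.80, against the direction of the label. Read as natural logarithms, all differences would be larger, with SOX6 at -6.66 and SOX8 at 5.20. Such a rescaling leaves the p-values as they were, so this alternative could not change a call.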
